A study of Mus musculus with 4 samples.

Results

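The cells described here were barcodes that held the RNA of a cortical thymic epithelial cell (cTEC) and of a thymocyte together, called thymocyte-cTEC complexes or nurse-like cells. Cells were kept with 200 genes or more and no more than 25% of UMIs from mitochondrial genes. A kept cell was counted as a complex when Prss16 and Psmb11 together made up at least 20 of every 10000 of its UMIs, with at least 5 UMIs of the pair, and when at least 5 of 8 T cell genes (Cd3d, Cd3e, Cd3g, Lck, Trbc1, Trbc2, Cd8b1 and Rag1) had a UMI. Of 28055 kept cells in 4 libraries, 709 were complexes. WT mice gave 38 with control IgG (WT-Control) and 181 with the RANKL antibody (WT-RANKL-Ab), and Cd40-/- mice gave 370 (Cd40-/- Control) and 120 (Cd40-/- RANKL-Ab). The cells were chosen by the measured levels of these 10 genes, so those levels are given as a description and support nothing.

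cTECs line the thymic cortex, where they present self-peptides to CD4+CD8+ (DP) thymocytes and so carry out positive selection. Psmb11 encodes β5t, the catalytic subunit of the thymoproteasome, and Prss16 encodes the thymus-specific serine protease, which acts in the pathway of MHC class II peptides. Some cTECs enclose several living thymocytes in a multicellular complex, the thymic nurse cell, in which DP thymocytes with a rearranged T cell receptor are found.

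Thymic epithelial cells (TECs) were taken from C57BL/6 mice, 6 weeks old, at 2 weeks after a subcutaneous dose of antibody and measured by scRNA-seq in droplets. WT-Control mice were wild type and had received control IgG, and WT-RANKL-Ab mice were wild type and had received the RANKL-neutralizing antibody OYC1 at 5 mg/kg. Cd40-/- Control and Cd40-/- RANKL-Ab mice carried a germline deletion of Cd40 and had received the same 2 agents. Cells of 3 mice per condition were pooled and sorted as EPCAM+CD45-TER119- cells, a gate that selects for the epithelial antigen EPCAM and against CD45, the antigen of thymocytes. Each condition is 1 library, so no value had a replicate within its condition and no test between conditions was possible. Intervals in parentheses are exact 95% intervals of counting error alone, and CPM is the number of UMIs of a gene in 1000000 UMIs of the cells named. A gene with no UMI in the complexes could be at up to 2.76 CPM in WT-Control, 0.793 in WT-RANKL-Ab, and 0.480 and 0.900 CPM in the control and antibody libraries of Cd40-/- mice. Where 4 values are given, WT comes before Cd40-/- and Control before RANKL-Ab.

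The 4 libraries held from 2082 to 10218 kept cells, with medians of 6086 to 7621.5 UMIs per cell. Cd40, the gene deleted in the mutant, stood at 110.0, 28.8, 5.75 and 4.75 CPM over all kept cells. The libraries shared cell barcodes. Both Cd40-/- libraries held the same 210 barcodes, which were 10.0% of the barcodes of Cd40-/- RANKL-Ab, whereas every other pair of libraries shared 18 to 125. Of the 120 complexes of Cd40-/- RANKL-Ab, 94 (78.3%) had a barcode that was also called as a cell in Cd40-/- Control, where it held a median of 2.75% of their UMIs (range 2.20% to 3.38%). These 94 complexes had a median of 29976 UMIs and the other 26 had 17077. Of the 100 barcodes of Cd40-/- RANKL-Ab with over 25000 UMIs, 93 were shared. The source of the shared barcodes was not tested. Shares of complexes, the numbers of genes outside the range of both partners and the sums of the cTEC, DP, cell cycle, MHC, mTEC and early gene lists are given with and without them, and other levels in Cd40-/- RANKL-Ab include them unless stated.

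Cells that met the cTEC part of the rule fell into 2 sets by their T cell genes. In WT-Control, 114 of 161 such cells had 0 or 1 of the 8 genes, 9 had 2 to 4 and 38 had 5 or more. In the same order there were 492, 38 and 181 of 711 cells in WT-RANKL-Ab. Among 1062 such cells of Cd40-/- Control there were 602, 90 and 370, and among 474 of Cd40-/- RANKL-Ab 314, 40 and 120. The cells between the sets were thus the smallest group in each library. All 8 genes were found in 22, 110, 258 and 101 complexes of the 4 libraries in this order. Just inside the threshold, with 5 genes, lay 0, 17, 24 and 2 complexes, and just outside it, with 4 genes, lay 2, 10, 33 and 1 cells. Of the 90 cells with 2 to 4 genes in Cd40-/- Control, 51 were barcodes shared with Cd40-/- RANKL-Ab at no more than 10% of the UMIs held there.

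**Figure D1:**
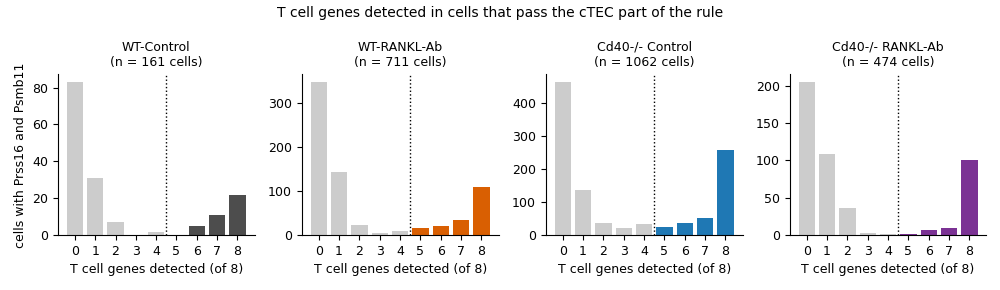
Number of cells (y axis) by the number of the 8 T cell genes with a UMI (x axis) among cells that pass the cTEC part of the rule, 1 panel per library; the dotted line is the threshold of the rule and coloured bars are complexes. Cells with 0 or 1 gene and cells with 8 genes form the tall bars in every library, with 9, 38, 90 and 40 cells at 2 to 4 genes.

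Complexes were set beside 2 classes of the same libraries. Thymocyte-poor cTECs met the cTEC part of the rule with at most 1 of the 8 T cell genes (1522 cells). Thymocytes had at least 5 of the 8 genes, at most 1 UMI of Prss16 and Psmb11 and at most 2 UMIs of Epcam, Krt8 and Krt18 (642 cells), so thymocytes were among the kept cells despite the gate. These caps are absolute numbers of UMIs and can leave out deeper barcodes. Of the cells with at least 5 T cell genes outside the cTEC part of the rule, they left out 39 of 78, 46 of 235, 84 of 351 and 40 of 187 in the 4 libraries.

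Complexes were the most UMI-rich of the 3 classes. A complex had a median of 26470, 21405, 16671.5 and 27126 UMIs and of 5339, 4904, 4590.5 and 5629.5 genes in the 4 libraries. Thymocyte-poor cTECs had medians of 5776.5 to 9108.5 UMIs and thymocytes of 1086 to 1683 UMIs. In each library the median of the complexes exceeded the sum of the medians of the other classes. The part of the caps on the thymocyte class in its lower depth was not tested. Complexes made up 3.35%, 50.5%, 26.6% and 51.3% of all kept cells with at least 20000 UMIs. Without shared barcodes the last value was 8 of 32 cells. Median mitochondrial shares were close in all classes, at 2.41% to 2.81% in complexes, 1.67% to 2.49% in thymocyte-poor cTECs and 2.54% to 2.66% in thymocytes. The lower quartile of thymocyte-poor cTECs was 0.0757% in WT-Control and 0.361% in Cd40-/- Control, against 1.91% and 1.89% in complexes. In WT-RANKL-Ab it was 1.54% against 2.34%. The part of cells with few mitochondrial UMIs in the differences between classes was not tested.

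**Figure D2:**
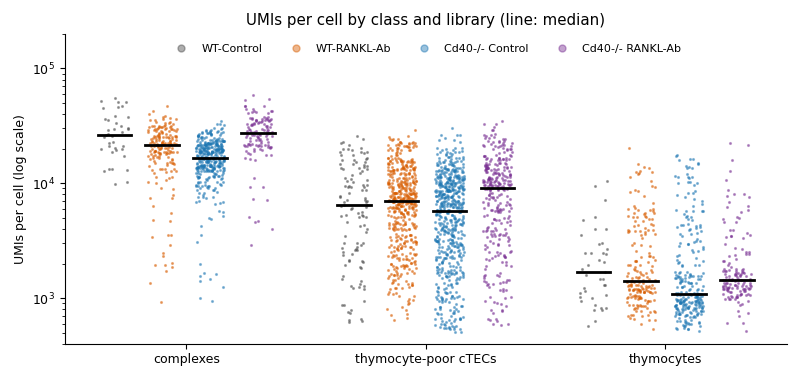
UMIs per cell on a log axis (y) for complexes, thymocyte-poor cTECs and thymocytes (x), each point a cell, coloured by library, with the median as a line. The medians of the complexes, 16671.5 to 27126 UMIs, lie above those of the other classes in every library.

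The complexes also held more thymocyte RNA per barcode than a cell of the thymocyte class did. The part of the caps on that class in this difference was not tested. The DP gene list, which the rule did not use, had means of 51.5, 39.4, 33.9 and 53.1 UMIs per complex against 13.4, 17.0, 14.3 and 15.1 per thymocyte. These ratios were 3.85, 2.32, 2.37 and 3.51. The cTEC list outside the rule held 2.76, 2.04, 2.03 and 2.44 times as many UMIs per complex as per thymocyte-poor cTEC. As levels, the DP list in complexes stood at 32.4% to 37.7% of its level in thymocytes and the cTEC list at 79.2% to 85.3% of that in thymocyte-poor cTECs. Without shared barcodes the cTEC list in complexes of Cd40-/- RANKL-Ab was at 41652 CPM in place of 36046 CPM. The 26 complexes left there held 736 UMIs of the DP list and 17076 of the cTEC list. These are fewer per complex than with the shared barcodes, so the UMIs per complex behind both ratios of this library depended on them. The number of cells in a barcode was not measured, and more cells and more RNA per cell cannot be told apart from these values.

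Complexes took up different shares of the 4 libraries. Of the kept cells, 0.372% were complexes in WT-Control (38 of 10218, 0.263% to 0.510%) and 2.53% in WT-RANKL-Ab (181 of 7164, 2.18% to 2.92%). In Cd40-/- mice the share was 4.31% after control IgG (370 of 8591, 3.89% to 4.76%) and 5.76% after the antibody (120 of 2082, 4.801% to 6.85%). The share of WT-Control lay below that of each other library beyond counting error. cTECs as a whole moved the same way, since cells that met the cTEC part of the rule were 1.58%, 9.93%, 12.4% and 22.8% of the kept cells. Without the 210 barcodes found in both Cd40-/- libraries, complexes were 4.34% of Cd40-/- Control (364 of 8386) and 1.39% of Cd40-/- RANKL-Ab (26 of 1872), so the place of the last library depended on these barcodes. A shallow copy was a shared barcode with at most 10% of the UMIs held in the other library. Without shallow copies alone, complexes were 4.33% of Cd40-/- Control (364 of 8409) and 5.77% of Cd40-/- RANKL-Ab (120 of 2080).

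As a share of the cells that met the cTEC part of the rule, complexes differed less between libraries. The share was 23.6% in WT-Control (38 of 161, 17.3% to 30.9%) and 25.5% in WT-RANKL-Ab (181 of 711, 22.3% to 28.8%). In Cd40-/- mice it was 34.8% after control IgG (370 of 1062, 32.0% to 37.8%) and 25.3% after the antibody (120 of 474, 21.5% to 29.5%). The interval of Cd40-/- Control lay above all others, which overlapped each other. Without the shared barcodes it was 38.0% in Cd40-/- Control (364 of 959) and 7.67% in Cd40-/- RANKL-Ab (26 of 339). Without shallow copies alone the share was 37.8% (364 of 962) and 25.3% (120 of 474) in these libraries. Among cells of the rule with at least 10000 UMIs the shares were 44.0%, 48.2%, 65.6% and 39.9%. The share was higher among the deeper cells of every library, and the part of depth in the differences was not tested. A sort and a digestion precede these shares, and fewer complexes in a thymus and fewer that survived the preparation cannot be told apart.

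The T cell part of the rule was also applied to other TECs, and since it uses the rule's own genes the shares are a description. Over all libraries, 29.4% of 2408 cells of the cTEC rule had 5 or more of the 8 genes. The share was 0.328% of 10990 Ccl21a-high cells, 0.807% of 4958 Aire-positive cells, 0.267% of 1498 cells with tuft markers and 1.84% of the remaining 5540 epithelial cells. Thinned to 3000 UMIs per cell, which left out shallower cells, the shares were 23.4%, 0.198%, 0.249%, 0.0750% and 1.80% in the same order. In Cd40-/- RANKL-Ab the remaining epithelial cells were at 8.81% (26 of 295, and 7.19% or 20 of 278 without shared barcodes), compared with 0.420% to 2.17% in the other libraries.

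The thymocyte genes of the complexes were mainly those of the DP stage, which the rule favoured through Cd8b1 and Rag1. Cd4 and Cd8a, the co-receptors of this stage, were both detected in 57.9%, 59.7%, 69.2% and 75.8% of complexes in the 4 libraries, and in 57.7% of the 26 complexes of Cd40-/- RANKL-Ab without a shared barcode. In thymocytes, which were shallower, they were found together in 33.3%, 31.2%, 36.0% and 40.1%. Dntt, the terminal transferase that adds bases at V(D)J junctions, stood at 438, 389, 334 and 342 CPM in the complexes, and Rag2, a recombinase subunit, at 43.2, 34.9, 35.9 and 36.0 CPM. Summed over the 12 DP genes, the level was 1799, 1883, 2010 and 1914 CPM, against 46.9 to 74.98 CPM in thymocyte-poor cTECs and 5327 to 5909 CPM in thymocytes. Without shared barcodes the sum in Cd40-/- RANKL-Ab was 1795 CPM.

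Genes of earlier and later stages were low. Among genes of CD4-CD8- (DN) thymocytes, Ptcra, the pre-TCR α chain, was at 26.1 to 45.1 CPM in complexes, Il2ra at 7.20 to 14.4 CPM and Kit at 0.600 to 1.28 CPM. Ccr7, a receptor that guides selected thymocytes to the medulla, had no UMI in the complexes of WT-Control and stood at 1.06, 3.36 and 3.30 CPM in the other libraries. Foxp3, the factor of regulatory T cells, had no UMI in any complex, and Cd40lg at most 0.480 CPM. Of the genes that follow TCR signalling, Cd69 was at 5.52 to 12.0 CPM and Cd5 at 21.2 to 29.8 CPM in complexes, compared with 0 to 53.1 CPM and 58.4 to 144.7 CPM in thymocytes. As lists, the 8 DN genes summed to 115.5 to 167.4 CPM in complexes and 252.4 to 432.5 CPM in thymocytes, the 8 genes of single-positive thymocytes to 120.5 to 171.0 and 168.3 to 311.8 CPM, and the 10 positive selection genes to 406.5 to 599.0 and 1156 to 1982 CPM. In thymocyte-poor cTECs the same lists summed to 104.1 to 119.8, 117.8 to 127.0 and 244.7 to 323.8 CPM in this order. The DN and single-positive sums of complexes thus lay near or not far above those of thymocyte-poor cTECs.

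Ptprc, which encodes CD45, the antigen that the sort selected against, was read in the complexes of every library and was looked up because of that gate. It stood at 129.7, 158.3, 254.3 and 179.5 CPM in complexes, at 0.328 to 2.24 CPM in thymocyte-poor cTECs and at 455 to 644 CPM in thymocytes. In Cd40-/- RANKL-Ab it was 243.9 CPM without shared barcodes. The complexes thus carried the CD45 transcript at 28.5% to 39.5% of its level in thymocytes.

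Cell cycle genes were high in complexes. The 14 genes summed to 1516, 1599, 1449 and 1275 CPM in complexes, against 52.3 to 99.8 CPM in thymocyte-poor cTECs and 2979 to 4762 CPM in thymocytes. Mki67, which encodes the Ki-67 antigen of dividing cells, was at 133.3, 137.2, 174.0 and 81.9 CPM in complexes, and Top2a, a topoisomerase of replicating cells, at 233.6, 256.9, 262.4 and 218.5 CPM. After thinning to 3000 UMIs, 18.4%, 25.1%, 28.0% and 14.3% of complexes had a UMI of Mki67, compared with 0.403% to 1.27% of thymocyte-poor cTECs and 46.4% to 72.1% of the thymocytes deep enough to be thinned. The list fell to 605 CPM in the 26 complexes of Cd40-/- RANKL-Ab with a barcode of their own, so that its level in this library rested on the shared barcodes. These 26 had a median of 17077 UMIs, against 29976 in the 94 with a shared barcode. The part of this difference in depth was not tested.

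Trbc1 and Trbc2 encode the alternative constant regions of the TCR β chain, and a mature β chain uses only one of them. When 10 Trbc UMIs were drawn from each cell that had them, at least 2 came from each gene in 63.9%, 70.3%, 77.5% and 78.1% of complexes (23 of 36, 111 of 158, 259 of 334 and 89 of 114). In thymocytes the shares were 71.9%, 56.1%, 59.6% and 68.6%. Both genes belong to the 8 of the rule, so the shares are a description and no comparison is drawn from them. They are near-identical paralogs and their reads may be split between them, so that the number of β chains in a barcode is uncertain.

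The epithelial RNA included that of cTECs, which the rule required through Prss16 and Psmb11, so the levels of other cTEC genes are a description. Foxn1, the master factor of TEC identity, was found in 89.5%, 81.8%, 75.4% and 92.5% of complexes of the 4 libraries, and its level there was 124.1, 114.7, 112.2 and 161.8 CPM against 138.7 to 194.8 CPM in thymocyte-poor cTECs. Ccl25, the chemokine that attracts thymocytes through Ccr9, was at 7747, 6921, 8435 and 7701 CPM in complexes and 7595 to 8684 CPM in thymocyte-poor cTECs. The Notch ligand Dll4, which commits progenitors to the T lineage, was at 60.7, 72.7, 107.6 and 105.6 CPM against 66.1 to 105.5 CPM. Ly75, the endocytic receptor DEC-205 on cTECs, was at 424, 472, 731 and 524 CPM against 409 to 785 CPM.

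Of the 12 cTEC genes outside the rule, 6 were lower in complexes than in thymocyte-poor cTECs by edgeR's quasi-likelihood test with an adjusted p under 0.05 and none was higher, while over all 10811 genes tested 22.8% were lower and 24.9% higher. Il7, the cytokine that DN thymocytes need to survive, showed the largest fall of the list. It stood at 126.0, 120.0, 145.1 and 132.0 CPM in complexes and at 251.8, 322.3, 275.8 and 337.0 CPM in thymocyte-poor cTECs. The groups of libraries did not overlap, and the log2 difference was -1.17 ± 0.25 (SD, n = 4 libraries; edgeR adjusted p = 2.64e-11). The others that fell were Ctsl, a cathepsin that trims class II peptides, Cxcl12, a chemokine, Kitl, the ligand of Kit, Foxn1 and Tbata. Epcam, Krt8 and Krt18, the epithelial reference, were all lower as well and summed to 60.5% to 70.1% of their level in thymocyte-poor cTECs. The presence of thymocyte UMIs in the total lowers the CPM of epithelial genes, and its part in these differences was not tested. The mTEC genes also moved with these genes. Of the 8, 5 were tested and all were lower in complexes, with a median log2 difference of -1.57. Among them were Krt5 (-2.17), a keratin of medullary TECs, and Aire (-1.55). Ccl21a, whose symbol is held by several rows of the counts, was not part of this test. Its summed level was 794.5, 567.3, 253.3 and 964.8 CPM in complexes against 3126, 4006, 1234 and 3301 CPM in thymocyte-poor cTECs. The 8 genes summed to 1622 to 4910 CPM in thymocyte-poor cTECs. The part of mTEC RNA in the fall of Il7 and of the other genes was not tested.

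MHC and antigen processing genes were lower too. The 19 genes summed to 42804, 40473, 36840 and 38646 CPM in complexes and to 63700, 58970, 52358 and 51069 CPM in thymocyte-poor cTECs, and in Cd40-/- RANKL-Ab to 45537 CPM in complexes without shared barcodes. Of the 19, 13 were lower and 1 was higher by the same test, against 22.8% lower and 24.9% higher over all genes. The mTEC genes, lower in the same contrast, moved with them, and their part was not tested. Of the 19, 16 were higher in complexes than in thymocytes. Thymocyte UMIs in the total lower the CPM of such genes, and their part was not tested either. The gene that was higher was Psmb8, the immunoproteasome subunit β5i, whose place β5t takes in cTECs. It was at 308, 239, 241 and 214 CPM in complexes, 211, 105, 116 and 94.9 CPM in thymocyte-poor cTECs and 755, 530, 530 and 460 CPM in thymocytes. Complexes lay between both partners in every library, higher than thymocyte-poor cTECs by 0.98 ± 0.30 on the log2 scale (SD, n = 4 libraries; edgeR adjusted p = 1.06e-09) and lower than thymocytes by 1.17 ± 0.08 (adjusted p = 2.06e-09).

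Markers of other cell types were few. The 9 macrophage and dendritic cell markers summed to 32.2, 7.14, 27.5 and 12.3 CPM in complexes and to 7.55 to 85.4 CPM in thymocyte-poor cTECs, with Adgre1 at 0 in the complexes of each library and C1qa detected in 0% to 5.26% of complexes. Of the 4 B cell markers only Cd79b had more than 2 UMIs in a library, and Ms4a1 had none. The 4 erythroid markers summed to 0.264 to 3.30 CPM. The 8 mTEC genes summed to 967, 754, 390 and 1116 CPM in complexes (529 CPM in the last library without shared barcodes) and to 3728, 4910, 1622 and 4028 CPM in thymocyte-poor cTECs, most of it from Ccl21a, the chemokine of medullary TECs. Ccl21a was also read in thymocytes, which do not make it, at 77.9 to 321.5 CPM. The 6 endothelial and fibroblast markers summed to 12.0 to 26.6 CPM in complexes and 55.9 to 93.0 CPM in thymocytes, most of it from Pecam1.

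**Figure D3:**
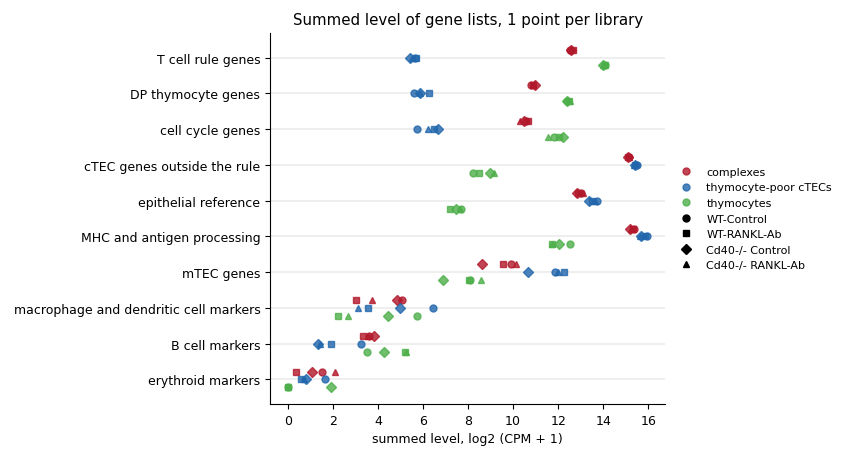
Summed level of 10 gene lists on a log2 scale (CPM plus 1, x axis) in complexes, thymocyte-poor cTECs and thymocytes (colours), with 1 symbol per library. Complexes lie between the other classes for the DP list (1799 to 2010 CPM) and the cTEC list (35143 to 36539 CPM), and the markers of macrophages, B cells and erythroid cells lie at the left.

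In a mixture of the RNA of a cTEC and a thymocyte the level of a gene lies between those of the partners, and genes outside that range were sought by edgeR's quasi-likelihood test on UMIs summed per library and class, with the library as a block. Higher in complexes than in both classes, with an adjusted p under 0.05 in each contrast, were 205 of 10811 genes (1.90%), and 65 (0.601%) were lower than in both. Of these, 150 and 45 lay outside the range in each of the 4 libraries. The classes were cut by the rule's genes from the same cells, and they differed in depth. On cells thinned to at most 3000 UMIs the numbers were 52 and 32 of 6278 genes tested, and without the library block 40 and 19. With DESeq2 they were 46 and 79, and without the shared barcodes 101 and 49 of 9232.

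Malat1, a nuclear long noncoding RNA encoded on chromosome 19 (5795690 to 5802672, minus strand, GRCm38), was the most abundant gene below both classes. It was at 9022, 8316, 10780 and 12760 CPM in complexes, at 19210, 18560, 21360 and 26890 CPM in thymocyte-poor cTECs and at 25970, 19390, 20380 and 34720 CPM in thymocytes. All libraries of the complexes lay below all those of the other classes. The log2 difference was -1.08 ± 0.07 to thymocyte-poor cTECs and -1.28 ± 0.27 to thymocytes (SD, n = 4 libraries; edgeR adjusted p = 4.11e-09 and 5.36e-10).

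Bcl2, the anti-apoptotic gene that rises as thymocytes are selected, was also below both (chromosome 1, 106538178 to 106714274, minus strand). Its level was 28.5, 35.2, 52.2 and 37.5 CPM in complexes, 59.7, 96.7, 96.8 and 75.5 CPM in thymocyte-poor cTECs and 51.7, 109.9, 68.2 and 130.2 CPM in thymocytes. Complexes were the lowest class within each library, with log2 differences of -1.09 ± 0.24 and -1.15 ± 0.66 (SD, n = 4 libraries; edgeR adjusted p = 6.83e-08 and 1.04e-05). Oaz2, an antizyme that restrains polyamine synthesis, was at 31.3, 23.0, 27.4 and 29.1 CPM in complexes against 39.1 to 43.7 CPM in thymocyte-poor cTECs and 33.4 to 82.7 CPM in thymocytes. Malat1, Bcl2 and Oaz2 passed the test under each of 13 alternative analyses. Vim, which encodes the filament protein vimentin, passed under all except the one that took cTECs with none of the 8 T cell genes. Serpinb1a, a serine protease inhibitor gene, was called below both on the values of 1 library. It was at 23.9, 15.1, 29.8 and 9.60 CPM in complexes, at 32.8 to 108.8 CPM in thymocyte-poor cTECs and at 20.7, 9.01, 98.8 and 7.97 CPM in thymocytes, so that complexes were below thymocytes in Cd40-/- Control alone. Without this library the log2 difference was 0.58. The other named genes below both were Pfkl, Mpzl2, mt-Nd6, Gm26699 and Usf1, and Usf1 passed under only 2 of the 13.

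Gse1, Hnrnpa0 and Myo5c were above both classes under each of the 13 alternatives. Gse1, which encodes a coiled-coil protein of a chromatin-modifying complex (chromosome 8, 120228456 to 120581390, plus strand), was at 70.8, 61.1, 84.1 and 71.7 CPM in complexes, 24.5, 39.6, 38.6 and 35.8 CPM in thymocyte-poor cTECs and 41.3, 36.0, 43.1 and 53.1 CPM in thymocytes. The complexes lay above all other values, by 1.05 ± 0.36 and 0.72 ± 0.22 on the log2 scale (SD, n = 4 libraries; edgeR adjusted p = 6.66e-09 and 0.000169). Hnrnpa0, a gene for an RNA-binding protein (chromosome 13, 58125879 to 58128556, minus strand), was at 105.8, 91.2, 101.7 and 99.3 CPM in complexes, 43.8 to 63.1 CPM in thymocyte-poor cTECs and 41.3 to 75.1 CPM in thymocytes, again with no overlap. Myo5c, an unconventional myosin of epithelial cells, was at 71.7, 93.3, 75.4 and 128.1 CPM in complexes against 22.4, 56.6, 55.7 and 75.9 CPM in thymocyte-poor cTECs. It had no UMI in thymocytes, which allowed up to 31.0, 5.41, 4.17 and 7.97 CPM, and no fold to thymocytes is given.

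**Figure D4:**
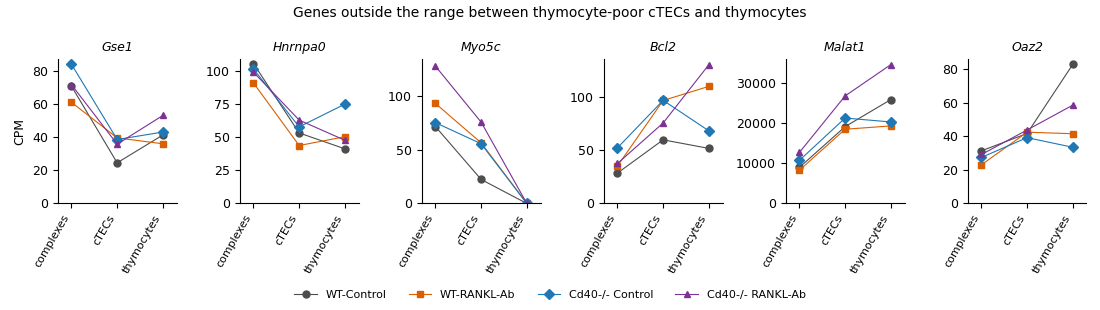
Level in CPM (y axis) of 6 genes in complexes, thymocyte-poor cTECs and thymocytes (x axis), 1 line per library. Gse1, Hnrnpa0 and Myo5c are highest and Bcl2, Malat1 and Oaz2 lowest in the complexes of each library.

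The 3 genes with the largest differences among those above both rested on few cells. Saa3 and Saa1, acute-phase serum amyloid proteins, and Apoa1, an apolipoprotein, were at 125.4, 37.5 and 17.8 CPM in complexes of Cd40-/- Control. The complex with most UMIs held 715 of the 783 of Saa3 there, 197 of the 234 of Saa1 and 67 of the 111 of Apoa1. Without that library Saa1 and Apoa1 were too low to be tested, and Saa3 turned to a log2 difference of -0.87. The complexes were above both classes within 1 of 4 libraries for Saa3 and within 3 for Saa1 and Apoa1. The other named genes above both were Samd1, Abca2, Rapgef1, Fcer1g, Plxnd1, Zfp777, Pitpnm1, Pmepa1 and Bicdl1, at 0 to 31.0 CPM in any class.

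Genes of receptors and bridging proteins for the uptake of dying cells moved in both directions. Of 12 genes 7 could be tested, and 2 were higher and 4 lower than in thymocyte-poor cTECs, against 24.9% and 22.8% of all genes. Mfge8, which encodes a protein that bridges phosphatidylserine and integrins, was the only one above both classes, against 1.90% of all genes. It stood at 159.1, 169.2, 122.8 and 198.1 CPM in complexes against 128.0, 157.4, 104.2 and 179.3 CPM in thymocyte-poor cTECs, a log2 difference of 0.20 ± 0.09 (SD, n = 4 libraries; edgeR adjusted p = 0.0419). Gas6, the ligand of the TAM receptors, was at 584.9 to 748.5 CPM against 991.1 to 1399 CPM. The TAM receptor genes Mertk and Tyro3 were at no more than 0.920 CPM in complexes, and Axl at 3.68 to 5.52 CPM. Of 9 apoptosis genes that could be tested, 5 were higher than in thymocyte-poor cTECs (Bcl2l1, Bcl2l11, Bid, Fas and Mcl1), against 24.9% of all genes. Of the 9, 6 were lower than in thymocytes, against 24.0% of all genes, and 0 passed the test against both classes in 1 direction. Of 17 ligands and receptors of cTECs and thymocytes that could be tested, 8 were higher and 5 lower than in thymocyte-poor cTECs, against 24.9% and 22.8% of all genes.

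Between conditions, the gene levels of the complexes were compared without a test. Between WT-Control and Cd40-/- RANKL-Ab, 7972 genes had at least 50 UMIs in the complexes of both together. In the mutant with antibody 55 of them (0.690%) were higher by at least 2-fold and 23 (0.289%) lower, with 10 CPM added, around a median log2 ratio of 0.11. Cd40 was at 47.8, 27.0, 9.61 and 9.90 CPM in complexes, and at 77.9, 37.4, 7.68 and 7.88 CPM in thymocyte-poor cTECs. The reads that remain in Cd40-/- libraries may lie outside the deleted part of the gene, which was not tested.

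Immediate early and heat shock genes were lowest in complexes of WT-Control. The 10 genes summed to 641.9, 1260, 1265 and 1706 CPM, and each of the 10 was lowest in WT-Control. Fos, a subunit of AP-1, was at 36.8 CPM (26.3 to 50.1) and 117.6 CPM (107.0 to 129.1) in WT mice without and with the RANKL antibody, and at 144.9 CPM (135.6 to 154.7) and 197.5 CPM (182.7 to 213.1) in Cd40-/- mice. The related factors Fosb and Atf3 stood at 2.76, 21.2, 41.8 and 40.2 CPM and at 4.598, 24.6, 35.4 and 47.7 CPM. The intervals of WT-Control lay below those of the other libraries for the 3 genes.

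Over the list, the median log2 ratio to WT-Control was 1.00, 1.01 and 1.55 in the other libraries, compared with 0.08, 0.15 and 0.10 over all genes. Of the 10 genes, 5, 5 and 9 were higher by at least 2-fold, against 0.250%, 1.12% and 0.556% of all genes with at least 20 UMIs. In thymocyte-poor cTECs of the same libraries the medians were 0.03, 0.68 and 0.89, with 0, 3 and 3 genes past 2-fold. WT-Control held 38 complexes, and in the 26 complexes of Cd40-/- RANKL-Ab without a shared barcode the list summed to 1315 CPM, with Fos at 122.0, Fosb at 21.95 and Atf3 at 17.1 CPM. The log2 ratio of Atf3 to WT-Control was then 0.89 in place of 1.98, under 2-fold. These genes also respond to tissue dissociation, and the handling of the libraries was not tested.

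**Figure D5:**
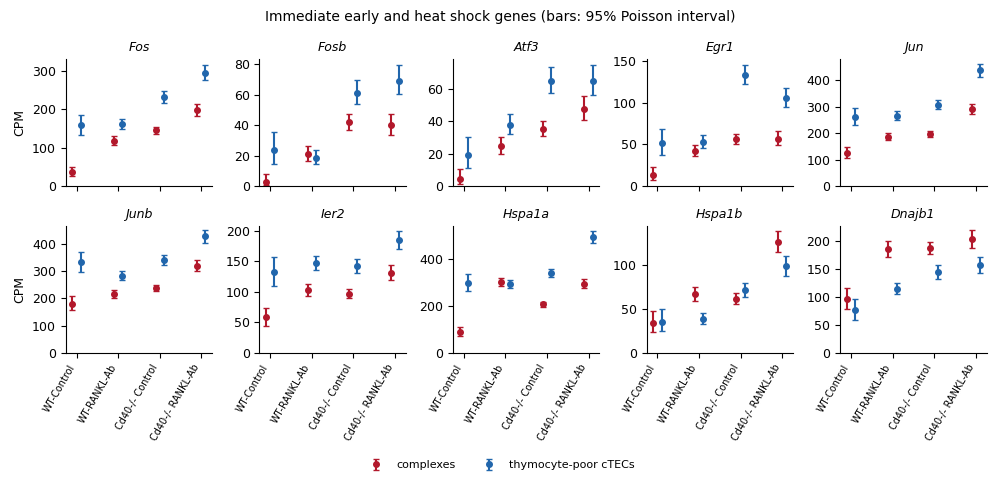
Level in CPM (y axis) of 10 immediate early and heat shock genes in complexes and thymocyte-poor cTECs of the 4 libraries (x axis), with exact Poisson intervals. In complexes, Fos runs from 36.8 CPM in WT-Control to 197.5 CPM in Cd40-/- RANKL-Ab and stays below the level in thymocyte-poor cTECs of the same library.

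Of the other genes named for their rise, the predicted gene Gm14305 was at 9.20, 25.6, 29.8 and 49.5 CPM. Ccl4, a chemokine of activated lymphocytes and macrophages, had no UMI in WT-Control and was at 4.76, 13.3 and 24.3 CPM in the other libraries. In Cd40-/- RANKL-Ab 1 complex held 76 of the 81 UMIs, and the 26 complexes without a shared barcode had none. Among the genes that were lower, the predicted gene Gm13305 was at 201.4, 45.2, 46.6 and 23.1 CPM, Ly6a, which encodes the surface protein Sca-1, at 69.0, 37.0, 45.3 and 9.60 CPM, and Srgn, the proteoglycan serglycin, at 306.2, 79.0, 123.4 and 72.0 CPM. Wfdc18, a secreted protease inhibitor family gene, was at 354.1, 44.1, 200.1 and 70.2 CPM. Reg3g, an antimicrobial lectin gene, was at 46.9, 7.14, 411.8 and 3.90 CPM, and 1 complex of Cd40-/- Control held 1824 of its 2572 UMIs. In WT-Control 1 complex held 137 of the 333 UMIs of Srgn, and 1 held 24 of the 51 of Reg3g. Without the complex with most UMIs, their log2 ratios to WT-Control went from -1.95 to -1.29 and from -2.03 to -1.42. Those of Gm13305, Wfdc18 and Ly6a went from -2.67, -2.18 and -2.01 to -2.52, -2.16 and -2.0.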

How the data were processed

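Droplet-based scRNA-seq of sorted TECs was available as 4 libraries, 1 for each condition. The authors processed the reads with Fastp and counted UMIs per gene and barcode on mm10 with Cell Ranger, version 5.0.1 per the file headers and 5.1 per the submitters' processing notes. The deposited values are raw UMI counts of called cells, without normalization. The labels name version 2 of the library kit and the study's methods a later one. Totals per library ranged from 19175068 to 95607338 UMIs. Exact intervals followed Clopper and Pearson for shares and the Poisson distribution for CPM. A limit of 3 counts was used where a gene had no UMI.

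No doublet caller was applied, since complexes hold RNA of more than 1 cell by definition, and doublets formed in the droplets were not separated from complexes of the tissue. UMIs were summed per library and class into 12 sums and tested with edgeR 4.0.16 in R 4.3.3 (TMM factors, filterByExpr, glmQLFit with library as block, Benjamini-Hochberg adjustment over all genes). Groups were taken from the sample titles. The block rests on each library giving all 3 classes. This fit was also run on counts simulated from a fixed mix of the partners' levels. Such counts hold no shared barcodes and no differences in cell quality, so they cannot speak to these limits. Other steps used Python 3.11.15 with numpy 2.4.6, scipy 1.17.1, pandas 2.3.3 and matplotlib 3.10.9. The other epithelial cells were split by Ccl21a (at least 20 UMIs per 10000), Aire (at least 2 UMIs) and at least 3 of 8 tuft markers. Cells were thinned to 3000 UMIs.

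The members and lists were chosen with earlier results of these data known. Named were the rule genes, the genes of the 20 lists, the 15 genes above both classes and the 10 below both with the largest smaller difference and at least 100 UMIs in complexes, Cd40, and the genes that rose most (5) and fell most (5) between WT-Control and the antibody library of Cd40-/- mice. The alternatives were a mitochondrial limit of 13%, at least 6 T cell genes, 40 UMIs per 10000, cells with at least 2000 UMIs, DESeq2 1.42.0, RLE factors, genes with at least 10 UMIs, no block, each library left out, cTECs with 0 of 8 T cell genes, thinning, and totals without mitochondrial, ribosomal and rule genes. Those without shared barcodes (shares, calls and list sums), without their shallow copies (at most 10% of the UMIs of the other library) and without the complex with most UMIs of a gene were chosen after seeing the data. Gene coordinates were taken from GENCODE on GRCm38.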

Additional observations from a re-analysis of the deposited data

Results flagged for a closer look

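The values below moved in opposite directions with the antibody in the 2 genotypes. The differences were not tested, since each rests on 1 library per condition. The share of cells of the cTEC rule that were complexes went from 23.6% to 25.5% in WT and from 34.8% to 25.3% in Cd40-/- mice, and in Cd40-/- RANKL-Ab it was 7.67% without the shared barcodes. Without shallow copies alone the share in Cd40-/- RANKL-Ab was 25.3%. The intervals of the WT libraries overlapped (17.3% to 30.9% and 22.3% to 28.8%), so no direction in WT was detectable at this depth. In complexes, the summed level of the cTEC genes outside the rule went from 36539 to 35143 CPM in WT and from 35447 to 36046 CPM in Cd40-/- mice (from 35461 to 41652 CPM without shared barcodes), and that of the epithelial reference from 8216 to 7526 CPM and from 7277 to 8910 CPM (from 7278 to 9096 CPM without shared barcodes). The mTEC genes went from 967.4 to 754.2 CPM in WT and from 390.2 to 1116 CPM in Cd40-/- mice (from 390.0 to 529.3 CPM without shared barcodes). MHC and antigen processing genes went from 42804 to 40473 CPM and from 36840 to 38646 CPM (from 36838 to 45537 CPM without shared barcodes). Tuft markers went from 7.36 to 23.0 CPM and from 12.97 to 3.90 CPM, on 8 and 87 UMIs in WT and 81 and 13 UMIs in Cd40-/- mice. Without shared barcodes 1 tuft marker UMI was left in Cd40-/- RANKL-Ab.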

How the results depend on the processing

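The share of kept cells that were complexes moved out of its interval in WT-RANKL-Ab (2.95%) and Cd40-/- Control (5.23%) when cells with fewer than 2000 UMIs were left out, and in Cd40-/- RANKL-Ab without the shared barcodes (1.39%). The share of cells of the cTEC rule moved in Cd40-/- Control (37.8% without shallow copies, 38.0% without shared barcodes, 41.3% from 2000 UMIs) and in Cd40-/- RANKL-Ab (7.67% without shared barcodes). The other 41 values of shares stayed inside their intervals. Genes above both classes numbered 46 with DESeq2, 90 with RLE factors, 40 without the replicate block, 52 of 6278 tested on thinned cells, 101 without shared barcodes and 72 to 197 with 1 library left out (72 without WT-RANKL-Ab, 80 without Cd40-/- RANKL-Ab and 128 without Cd40-/- Control). Genes below both numbered 150 with RLE factors, 19 without the block, 32 on thinned cells and 27 to 71 with 1 library left out. All 46 genes that DESeq2 placed above both, and 51 of its 79 below, were among the genes of the edgeR test. The split between higher and lower calls depended on the scaling, with 205 against 65 under TMM and 90 against 150 under RLE factors. Of the named genes, 2 reversed, both without Cd40-/- Control: Saa3 (-0.87, against up to 1.72 with another library left out) and Serpinb1a (0.58, against -1.39). Among the 294 values of named genes under alternatives, 239 kept their call. The cause of these changes was not tested. Without mitochondrial, ribosomal and rule genes in the total, the DP list stood at 29.7% to 34.4% of thymocytes and the cTEC list at 85.2% to 89.8% of thymocyte-poor cTECs. Depth limits what thymocytes can show, since their sums held 96757 to 718809 UMIs.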

Other observations

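Nuclear genes of the respiratory chain were grouped by their symbols after the values had been seen, so their numbers are a description with no test. Of 13 cytochrome c oxidase genes (Cox4 to Cox8) 6 were above both, with median log2 differences of 0.23 to thymocyte-poor cTECs and 0.58 to thymocytes. Of 16 ATP synthase genes (Atp5) 5 were above both, and of 45 complex I genes (Nduf) 8, compared with 1.90% of all genes tested. On cells thinned to at most 3000 UMIs 2, 3 and 2 of them passed, with DESeq2 1, 2 and 2, with RLE factors 1, 3 and 2, and without the library block 1, 0 and 0.

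Interferon-stimulated genes differed more between libraries in thymocyte-poor cTECs than in complexes. The 12 genes summed to 1344, 1012, 1385 and 1029 CPM in complexes (WT before Cd40-/- and Control before RANKL-Ab), and to 3853, 1797, 2197 and 1181 CPM in thymocyte-poor cTECs. In complexes, 9 of the 12 were lower than in thymocyte-poor cTECs by edgeR, against 22.8% of all genes. Of the 12, 8 were higher in complexes than in thymocytes. Thymocyte UMIs in the total lower the CPM of such genes, and their part was not tested. No test between the libraries was possible with 1 library per condition.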
